A study of Rattus norvegicus with 4 samples.

Results

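The cytosolic ribosomal protein genes were the rows of the count matrix whose symbol begins with Rpl, Rps or Rplp and a number, or is Rpsa, without the Rps6k kinases, that had at least 1 unique molecular identifier (UMI, a tag that counts 1 captured transcript) in 30 or more cells. Of 30058 rows, 100 had such a symbol and 91 of these passed the limit on cells. The 91 members comprised 71 core genes (42 of the large subunit and 29 of the small subunit), 11 paralogs (Rpl39l, Rpl22l1, Rps27l, Rpl10l, Rpl7l1, Rpl31l4, Rpl30l1, Rps27l3, Rps10l1, Rps19l1 and Rps4y2), 8 rows with a pseudogene symbol, and Rps19bp1, which encodes a partner of the Rps19 protein and no subunit. The cells came from dispersed anterior pituitary glands of postpubertal Sprague Dawley rats without treatment, with 1 pool of 4 pituitaries from females aged 44 days in diestrus and 1 pool of 4 pituitaries from males aged 59 days, each run on 2 lanes. The sex of a lane was read from how many cells it holds, a number that the study states for both lanes of each sex. Lanes of a sex are therefore technical replicates, and sex cannot be told apart from pool or age.

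The ribosome is built from ribosomal RNA and a large set of proteins in a small (40S) and a large (60S) subunit, and nearly every cell type makes almost all of these proteins. Their transcripts are short, abundant and, as a class, carry a pyrimidine tract at the 5′ end through which their translation is controlled together. A few of the genes have a paralog whose protein can take the place of the core protein in the ribosome, and Rpl39l and Rpl10l are best known from the testis.

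The marker genes of the study, none of which is a ribosomal protein gene, set the cell types. Of the cells used, 192 that the markers did not classify took the most frequent type among their nearest neighbours. The hormone-producing types were lactotrophs (L), somatotrophs (S), corticotrophs (C), thyrotrophs (T) and gonadotrophs (G), and the others were folliculostellate cells (FSC), endothelial cells (EC), leukocytes (Le) and erythrocytes (E). Of 7861 cells, 6851 were used: 361 E, 547 Le, 133 EC, 2313 FSC, 795 C, 239 G, 88 T, 1889 S and 486 L. The summed level of the Le markers was 92.6 per 10000 UMIs in Le and at most 0.125 elsewhere, that of the FSC markers 29.7 in FSC and at most 0.512 elsewhere, and that of the markers of all hormone-producing cells at least 88.3 in these and at most 2.27 in the others. The 4 lanes held 1861 to 2085 cells and 18955509 to 24048021 UMIs each. The Y-linked gene Eif2s3y had 0 and 1 UMIs in the female lanes and 2038 and 2100 in the male lanes. Kdm5d had 0 and 0 against 228 and 264. Ddx3y, which the paper also places on the Y chromosome, had 10 and 8 against 11 and 14 and did not tell the sexes apart. A total of 30 barcode sequences, in 60 cells, occurred in more than 1 lane. Female T stood apart, with medians of 9.50% and 8.37% mitochondrial UMIs per cell against 5.83% and 6.57% in male T.

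The account below turns on Rpl39l, a paralog that set pituitary cells apart, on its partner Rpl39, and on Rplp1. Rplp1 was the core gene that passed the test as lower in males in all 5 cell types tested. The stretches around the starts of these genes are shown for that reason. They are from RefSeq (build GRCr8; Rpl39l is listed there as Rpl39l1), run 5′ to 3′ from 120 bases before to 30 bases after the annotated start, and have in capitals CCGGAAG on either strand, or CTTTCC on the gene's strand within 20 bases of the start.
Rpl39l (chr10:5966592-5966741, minus strand): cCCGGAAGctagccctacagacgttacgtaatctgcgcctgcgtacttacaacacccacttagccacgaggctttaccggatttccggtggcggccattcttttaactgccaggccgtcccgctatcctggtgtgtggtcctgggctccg
Rpl39 (chrX:121195867-121196016, minus strand): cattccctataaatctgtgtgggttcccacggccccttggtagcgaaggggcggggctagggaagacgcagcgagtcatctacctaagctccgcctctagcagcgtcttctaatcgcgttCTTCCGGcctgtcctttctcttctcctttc
Rplp1 (chr8:71290843-71290992, minus strand): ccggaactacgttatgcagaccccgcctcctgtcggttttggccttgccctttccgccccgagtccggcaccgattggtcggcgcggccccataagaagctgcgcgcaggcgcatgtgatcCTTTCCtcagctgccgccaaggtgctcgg
Promoter windows of 300 bases, from 250 before to 50 after the start, were matched for 66 members, 57 of them core genes. CCGGAAG stood on either strand in 18 of 57 core windows (31.6%) against 8.75% of all 33469 windows. CTTTCC lay within 20 bases of the start, on the gene's strand, in 16 of 57 (28.1%) against 1.73% of all. AAGATGGC, whose first 3 letters can overlap the end of CCGGAAG, stood on either strand in 4 of 57 (7.02%) against 3.17%. Rpl39l and Rpl39 both held CCGGAAG, beginning 119 bases before the start in Rpl39l and at the start itself, on the other strand, in Rpl39. The windows of Rpl22, Rpl22l1 and Rplp0 held none of these 3 motifs. These matches describe letters in the windows, and no binding was measured.

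Ribosomal protein transcripts varied between cell types in the part of the transcriptome that they made up. Their summed share of UMIs was highest in Le at 22.9% ± 0.910 (mean and SD, n = 4 lanes) and in FSC at 21.2% ± 0.0724. L followed with 18.1% ± 0.261, EC with 16.6% ± 0.804 and S with 16.4% ± 2.21. G had 15.5% ± 1.58, C 14.4% ± 0.448 and T 12.5% ± 1.38. The lanes of Le (21.8% to 23.99%) and FSC (21.1% to 21.3%) did not overlap with each other or with those of any other type. S overlapped with L, EC, G, C and T, and EC also overlapped with G. C, G and T overlapped with each other. In single cells the share spread more widely: the middle 50% of FSC lay between 19.1% and 24.02%, of S between 13.2% and 19.98%, and of T between 9.94% and 15.2%.

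Hormone transcripts took up much of the total in the cells that secrete them, from 8.86% of UMIs in a male lane of G to 32.4% in a female lane of L, so the share was also computed with 7 hormone genes and 12 globin genes left out of the total. On that scale L had 24.3% ± 2.54, S 23.4% ± 2.57, Le 23.03% ± 0.909 and FSC 21.3% ± 0.0967, and the lanes of Le, S and L overlapped. C and G had 18.1% ± 0.347 and 18.02% ± 2.77, EC 16.7% ± 0.809 and T 14.6% ± 1.18. The order of the types therefore depended on whether hormone transcripts were counted, with T the lowest type after E, and Le and FSC above C, EC and T, on both scales.

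**Figure D1:**
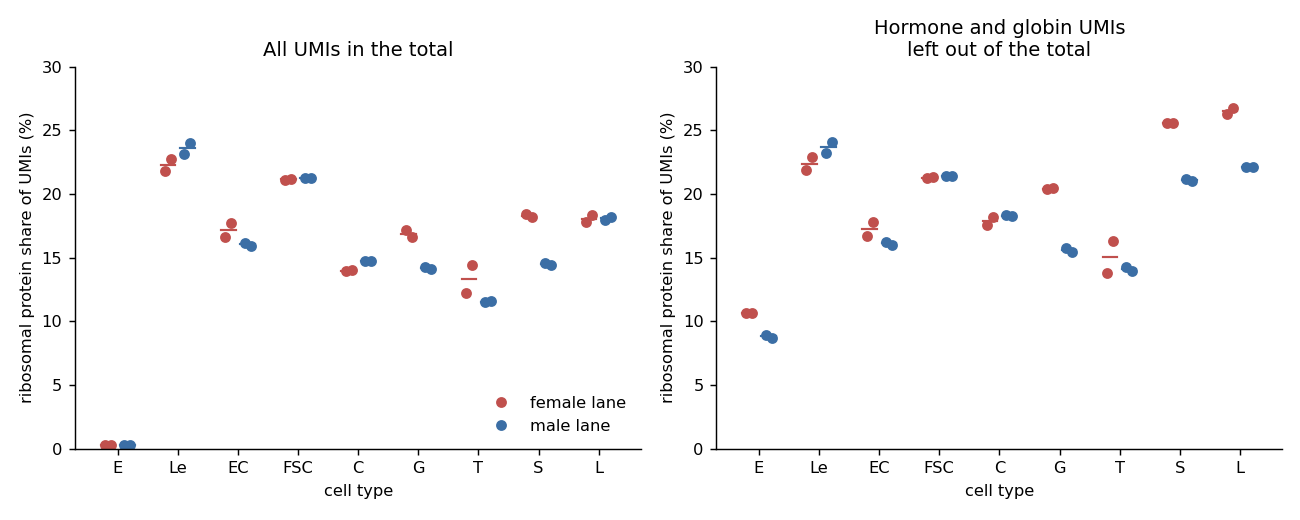
Share of UMIs in the 91 ribosomal protein genes (y axis, percent) in each cell type (x axis), with all UMIs in the total on the left and without hormone and globin UMIs on the right. Points are lanes, red for female and blue for male, and short lines are the mean of the 2 lanes; Le and FSC lie above all other types on the left, and the female lanes of G, S and L lie above the male lanes on the right.

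Erythrocytes, which lose their ribosomes as they mature, were far below all other cells. Their share was 0.317% and 0.310% in females and 0.284% and 0.267% in males, beside 96.6% to 96.9% of globin UMIs. This came to lane means of 23.8 to 26.8 ribosomal protein UMIs per erythrocyte, against 848 or more per cell in every lane of the other types. Transcripts of growth hormone (Gh1), which erythrocytes do not make, serve as a measure of free RNA in the droplets. Erythrocytes held 1.74 to 3.05 ribosomal protein UMIs per Gh1 UMI, and the other cells of the same lanes, summed, held 1.22 to 1.97. The part of free RNA in the erythrocyte counts was not tested further.

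Small-subunit genes gave a part of the core UMIs that spanned a narrow range in the 8 types other than E. It ran from 38.1% ± 0.129 (SD, n = 4 lanes) in C and 38.1% ± 0.0802 in T, through 38.998% ± 0.120 in L and 39.9% ± 0.0373 in FSC, to 41.1% ± 0.333 in EC and 41.4% ± 0.229 in Le. Within this range the lanes of C, FSC and Le did not overlap each other. E had 36.9% ± 2.40. Of the 71 core genes, 48 had their highest level in Le, 17 in FSC and 6 in another type, while 52 were lowest in T, 10 in C and 7 in EC. Between the highest and the lowest of the 8 types other than E, the level of a core gene differed by a median of 2.11-fold, from 1.26-fold for Rpl36 to 4.30-fold for Rplp0. Rplp0, Rpl23, Rpl7, Rps19 and Rps12 were among the core genes with a difference over 3-fold. Rps19 rests on few counts, with 1225 UMIs in all cells.

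**Figure D2:**
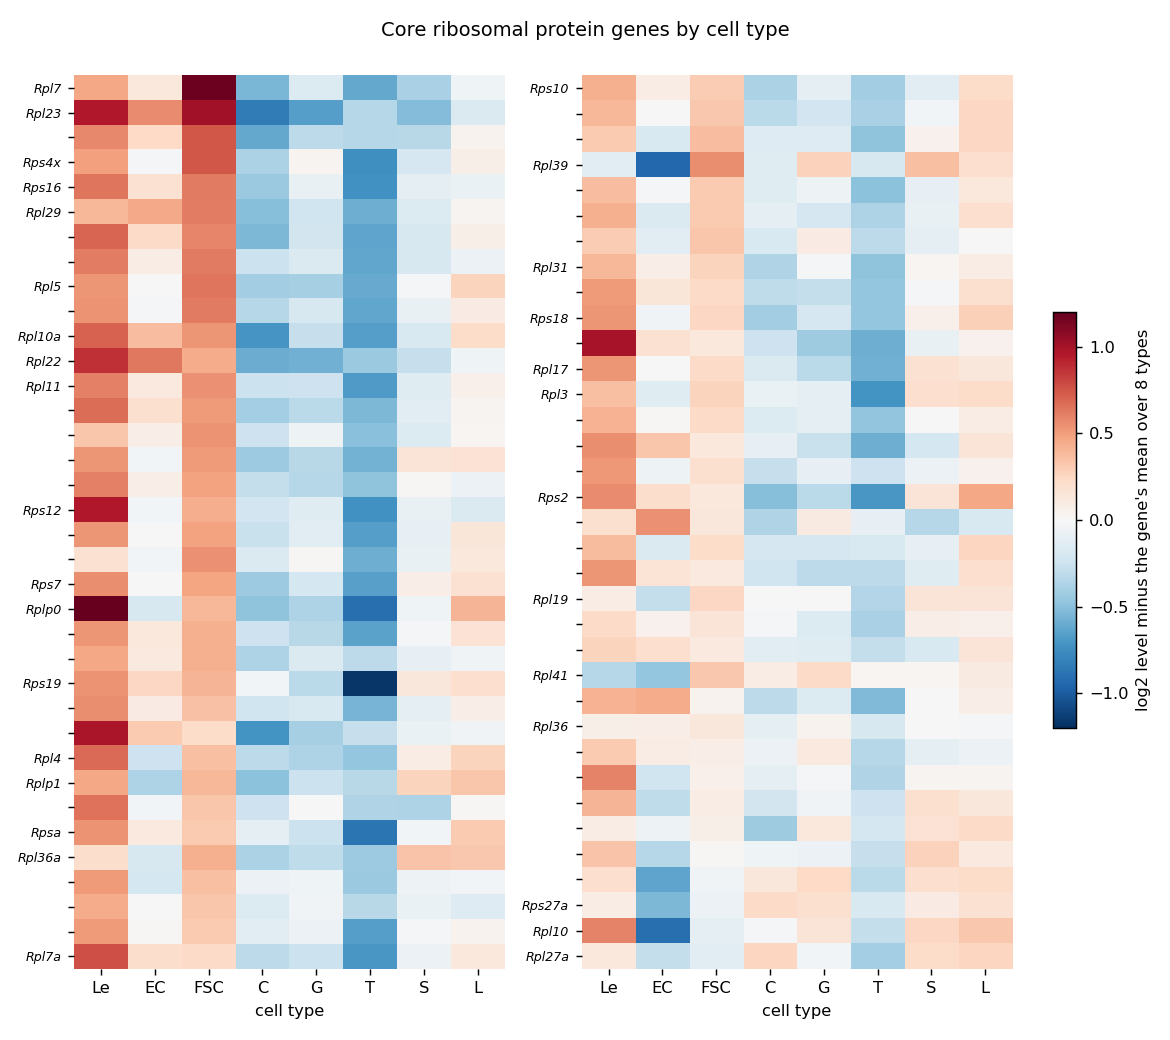
Level of each of the 71 core genes (rows, ordered by the FSC against hormone-producing contrast and labelled for genes named in the text) in 8 cell types (columns), as the log2 of the mean level over 4 lanes minus the gene's mean over the types. Red marks levels above and blue below the gene's mean. On these totals of all UMIs, hormone UMIs included, 48 genes are highest in Le and 17 in FSC, and 52 are lowest in T.

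Pituitary cells (FSC and the 5 hormone-producing types) were compared with Le and EC, the cells of blood and vessels, to ask which members set the gland's own cells apart. The test was edgeR's quasi-likelihood test on 16 sums of counts, 1 for each of 8 types and 2 sexes, over all 13625 genes with enough counts, and 87 members were tested. At an adjusted p under 0.05, 5 members were higher in pituitary cells, where 31.1% of all genes tested were, and 47 were lower, where 24.0% of all were. The median log2 difference was -0.32 over the members and 0.19 over all genes. Without T, an alternative chosen after seeing the data, the counts were 9 higher and 24 lower, and with hormone and globin UMIs left out of the library size they were 15 and 17, where 5297 and 2536 of all 13625 genes were called. The median of all genes was 0.44 on that scale, and the members' median minus it was -0.49, against -0.50 with TMM. The shares of all genes without T are not given here.

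Rpl39l was the member with the largest difference. Its level, in UMIs per 10000 UMIs of a lane, was 3.12, 3.27, 3.44 and 3.004 in FSC and 0.210, 0.108, 0.0675 and 0.173 in Le, with the 2 female lanes given before the 2 male lanes here and below. All 24 lanes of the 6 pituitary types lay at 3.004 or above, and all lanes of Le, EC and E at 0.213 or below, so the groups did not overlap. The log2 difference was 5.15 ± 0.24 (SE, adjusted p = 7.68e-11, edgeR), and it lay between 4.90 and 5.55 under the alternatives tried. In counts, 547 Le held 50 UMIs and 133 EC held 9, where 2313 FSC held 6076 and 1889 S held 9224.

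A UMI of Rpl39l was found in 85.3% of FSC (exact 95% interval 83.7% to 86.7%), 90.9% of L, 92.9% of G, 93.2% of T, 94.1% of C and 95.1% of S. It was found in 8.23% of Le (6.06% to 10.9%), 4.51% of EC (1.67% to 9.56%) and 0.554% of E (0.0672% to 1.99%), which should lack most transcripts. Median depths were 6896 UMIs in FSC, 6494 in Le, 7330 in EC, 8246 in E and 13659 in S. With each cell thinned to 2000 UMIs the shares were 44.7% in FSC and 49.6% in S against 2.74% in Le and 3.01% in EC. Le held 4.82 and EC 3.07 Rpl39l UMIs per 1000 Gh1 UMIs, against 2.78 in all cells together, and FSC held 96.9. E held 0.736. The part of free RNA in the counts of Le and EC was not tested further. The intervals cover counting error only.

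Among the 6 pituitary types the level of Rpl39l was of similar size on plain totals. The means were 3.21 ± 0.190 per 10000 UMIs (SD, n = 4 lanes) in FSC, 3.33 ± 0.146 in C, 3.53 ± 0.292 in S, 3.79 ± 0.126 in L, 3.94 ± 0.614 in T and 3.98 ± 1.03 in G, an order in which each step was smaller than the larger SD of the 2 neighbours. With hormones and globins left out of the total, the pooled level was 3.23 in FSC, 4.18 in C, 4.44 in T, 5.003 in S, 5.03 in G and 5.26 in L, a wider span in another order. FSC were lower than the hormone-producing types by 0.49 on the log2 scale (SE 0.19, adjusted p = 0.048), a call lost under 6 of 12 alternatives. The test over the 5 hormone-producing types did not pass (adjusted p = 0.278). Over the 16 sums, the genes whose log2 levels were most like those of Rpl39l were Ypel4 (Spearman rho 0.97), Lyrm2 (0.96), Bex2 (0.95), Serp2 (0.95) and LOC100909598 (0.95), as a description of sums that share their lanes.

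Rpl39, the core partner, was also higher in pituitary cells, by 0.73 ± 0.16 (log2, SE, adjusted p = 0.00129). Its level was 0.825, 0.917, 0.792 and 0.889 in FSC, 0.468, 0.584, 0.511 and 0.572 in Le and 0.213 to 0.424 in EC. C and T had means of 0.528 and 0.510, no higher than the 0.534 of Le. The lowest lanes of G (0.503) and L (0.558) lay within the range of Le, but their means (0.706 and 0.668) lay above it. S had a mean of 0.748. By these levels the rise held against EC, but not for every pituitary type against Le. Rpl39l made up 78.97% of the UMIs of the pair in FSC (exact 95% interval 78.04% to 79.9%), 82.99% to 88.4% in the hormone-producing types and 20.2% (15.4% to 25.7%) in Le. The row Rpl39 may hold only part of its transcripts. It and 5 rows that RefSeq names as copies of Rpl39 together hold 23127 UMIs against 5796 in the row itself. Whether the UMIs of these copies are Rpl39 transcripts was not tested. Each of these 5 rows missed the test in the same contrast, with log2 differences from -0.27 to 0.95. With them counted as Rpl39, an alternative chosen after seeing the data, the share of Rpl39l was 51.5% in FSC, 54.97% to 62.6% in the hormone-producing types and 5.40% in Le, so the size of the share depended on the copies and the order of these 3 classes did not.

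The pair Rpl22 and Rpl22l1 moved in opposite directions. Rpl22, whose protein is known for its role in lymphocyte development, had levels of 11.2, 12.8, 12.4 and 13.01 in Le, 9.01 to 9.50 in FSC and 4.33 to 4.54 in C. Rpl22l1 had 7.69, 7.18, 7.14 and 7.89 in Le, 15.8 to 17.6 in FSC and 17.3 to 18.6 in C. In pituitary cells the log2 difference of Rpl22 was -0.99 ± 0.11 (SE, adjusted p = 1.49e-06) and that of Rpl22l1 1.10 ± 0.12 (adjusted p = 1.36e-06). Rpl22l1 gave 37.5% of the UMIs of the pair in Le (exact 95% interval 36.4% to 38.7%), 45.8% in EC, 64.6% in FSC (64.1% to 64.99%) and 71.9% to 81.1% in the hormone-producing types. The lane ranges of this share in Le, EC and FSC did not overlap each other or those of the hormone-producing types. The row that RefSeq names as a copy of Rpl22 had a log2 difference of -0.95 ± 0.13 (adjusted p = 1.93e-05).

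**Figure D3:**
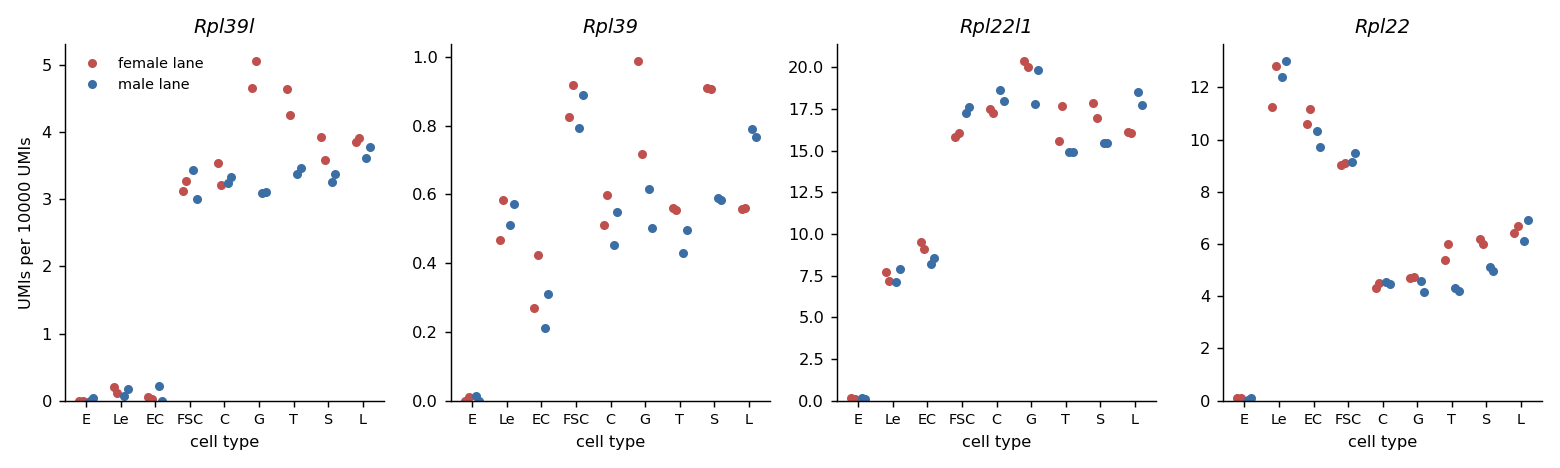
Levels of Rpl39l, Rpl39, Rpl22l1 and Rpl22 (y axis, UMIs per 10000 UMIs, on a separate linear scale for each gene) by cell type (x axis), each point a lane, red for female and blue for male. Rpl39l is at 3.004 or above in every lane of the 6 pituitary types and at 0.213 or below in E, Le and EC, while Rpl22l1 is higher and Rpl22 lower in pituitary cells than in Le and EC.

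The other members higher in pituitary cells were Rpl10l, by 1.53 ± 0.35 (adjusted p = 0.00174), and Rpl41, which encodes the shortest ribosomal protein, by 0.56 ± 0.15 (adjusted p = 0.00449). Rpl10l is a sparse row, with 15 UMIs in Le, 17 in EC, 302 in FSC and 558 in S, and its share of the UMIs of Rpl10 and Rpl10l was 0.0797% in Le and 0.803% in EC, against 0.485% to 0.822% in the pituitary types, so by this share EC were not below them. Rpl41 had 66.9 to 73.7 UMIs per 10000 in Le, 105 to 117 in FSC and 90.5 to 98.02 in C, and Le did not overlap with FSC or C.

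Of the 71 core genes, 41 were lower in pituitary cells and 2 higher. Beside Rpl22, those with large differences included Rpl23 (-0.99 ± 0.14), Rpl10a (-0.69 ± 0.13), Rplp0 (-0.65 ± 0.17), Rpl7a (-0.63 ± 0.14) and Rps12 (-0.61 ± 0.13), with adjusted p from 2.27e-05 to 0.00391. Rplp0, the base of the stalk that recruits translation factors, stood at 71.9, 75.3, 72.6 and 75.98 in Le, at a mean of 28.2 in EC and at 42.3 in FSC. Le were above EC and FSC. Rpl23 differed, since its mean of 32.6 in FSC was beside 31.4 in Le and 23.98 in EC, and the hormone-producing types were at 9.06 to 14.4.

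The remaining paralogs moved less or rested on few counts. Rps4y2, a row that is not Y-linked in RefSeq, was lower in pituitary cells (-2.14 ± 0.25, adjusted p = 2.57e-06), with 66 UMIs in 133 EC, 44 in Le, 138 in FSC, 180 in C and 45 in S. Its share of the UMIs of Rps4x and Rps4y2 was 8.11% in EC and 1.26% in Le. That share was 3.67% in C, 2.97% in T and 0.305% to 0.659% in FSC, G, S and L, so by it C and T were not below Le. A further row that RefSeq names Rps4x, with 247290 UMIs against 60806, was not counted in this share. With that row counted, the share would be smaller in every type. Rpl7l1, a relative of Rpl7, was lower as well (-0.82 ± 0.15, adjusted p = 0.000198), as were Rps10l1 (-0.29 ± 0.11, a call lost under 4 of 12 alternatives) and Rps19l1 (-0.47 ± 0.12), both listed as pseudogenes in RefSeq. The fall of Rpl7l1 did not hold for FSC against Le, with 1211 UMIs in 2313 FSC, 119 in 547 Le and 70 in 133 EC. Rps27l had -0.22 ± 0.11 (adjusted p = 0.117), Rpl31l4 -0.22 ± 0.12 (0.14) and Rps27l3 0.07 ± 0.14 (0.751). Rps10l1 gave 18.4% to 20.7% of the UMIs of Rps10 and Rps10l1, and Rpl31l4 11.4% to 14.6% of those of Rpl31 and Rpl31l4, in all 9 types. Rps19l1 gave 88.7% to 93.1% of the UMIs of Rps19 and Rps19l1 in the 8 types other than E. The rows that RefSeq names Rps19-ps2 and Rps19l4, with 14583 and 3704 UMIs, were not counted in this share, so its size depends on them. Rpl30l1 had 109 UMIs in all and was not tested. Counts of near-identical rows depend on where a read could be placed and are uncertain.

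FSC, the non-endocrine cells of the gland that support its network, were then compared with the 5 hormone-producing types. Of 87 members tested, 20 were higher in FSC, where 28.5% of all genes tested were, and 4 were lower, where 20.1% of all were. The median log2 difference was 0.16 over the members and 0.09 over all genes. Without T, again chosen after seeing the data, 12 were higher and 7 lower, and without the female lane of 1861 cells 0 were lower. The shares of all genes in these fits are not given here. With library size as the scale 57 were higher and 0 lower, where 4948 and 1694 of all 13625 genes were. The median of all genes was 0.39 on that scale.

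The largest differences lay in a few genes. Rpl7 was at 41.1, 40.99, 40.9 and 41.3 in FSC, at 11.5 to 13.2 in C and at 17.1 to 18.5 in L, and FSC were above every lane of the hormone-producing types. The log2 difference was 1.23 ± 0.17 (SE, adjusted p = 2.16e-05). Rpl23 was at 32.2 to 32.9 in FSC and at 8.49 to 9.54 in C, with a log2 difference of 1.21 ± 0.18 (adjusted p = 4.19e-05). Rpl7l1 followed its relative with 1.33 ± 0.15 (adjusted p = 2.26e-06), at means of 0.641 in FSC and 0.177 to 0.249 in the hormone-producing types. The small-subunit genes Rps4x (0.70 ± 0.14) and Rps16 (0.63 ± 0.16) and the large-subunit gene Rpl29 (0.61 ± 0.16) were also higher, with adjusted p from 0.000627 to 0.00422. Rps4x has a further row under another name with 247290 UMIs against 60806, and that row had 0.79 ± 0.14 (adjusted p = 0.000237).

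The core genes lower in FSC were Rpl27a (-0.48 ± 0.17, adjusted p = 0.031), Rpl10 (-0.48 ± 0.16, 0.0189) and Rps27a (-0.46 ± 0.17, 0.032). Each of these calls was lost without the female lane of 1861 cells, without the male lane of 2047 cells and with library size as the scale. Rpl27a was at 35.8 to 36.8 in FSC and at 47.005 to 47.4 in C. Rps27a, which is made as a fusion with ubiquitin, was at 2.62 to 2.73 in FSC and 3.16 to 3.46 in C. Lanes of G (2.51 to 4.02), S (2.59 to 3.49) and T (1.84 to 3.15) overlapped with FSC in Rps27a, while L lay at 3.05 to 3.37. A further row named Rps27a by RefSeq, with 183900 UMIs against 23992, had a log2 difference of -0.15 ± 0.18 (adjusted p = 0.523), so the call did not extend to it.

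**Figure D4:**
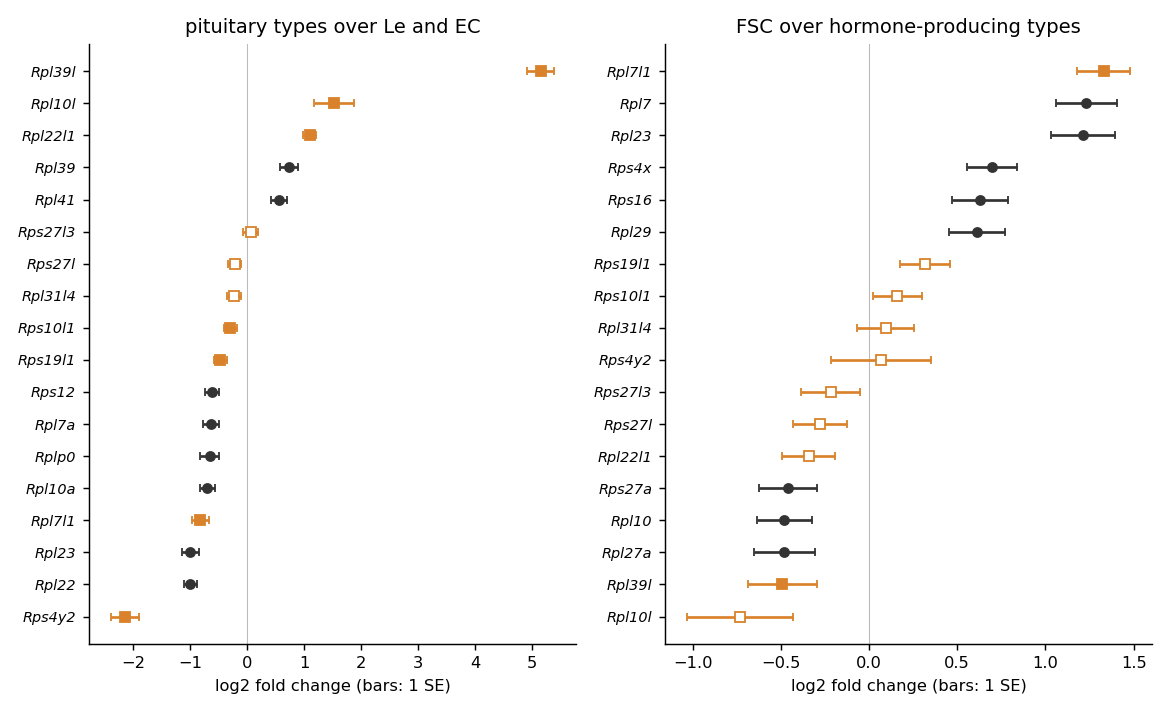
Log2 fold changes (x axis, bars 1 SE) of the paralogs and of the core genes named in the text for each contrast (rows), for pituitary types over Le and EC on the left and FSC over hormone-producing types on the right. Orange squares are paralogs, black circles core genes, and open symbols had an adjusted p of 0.05 or more; Rpl39l stands at 5.15 on the left and Rpl7l1, Rpl7 and Rpl23 at the top on the right.

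Among the 5 hormone-producing types, 76 of 87 members differed in an F test over the types, where 38.6% of all genes tested did. With library size as the scale 37 did, and without T, added after seeing the data, 55 did. The shares of all genes under these alternatives are not given here, so these counts have no background beside them. The core genes with the smallest p were Rpl5, Rps7, Rps2, Rpl17, Rpl36a, Rpl4, Rpl10a and Rps4x, with adjusted p from 0.000193 to 0.000792. Rpl5, which with Rpl11 carries 5S ribosomal RNA into the ribosome, had means of 12.4 in L, 10.1 in S, 7.78 in G, 7.71 in C and 6.76 in T. Rps2, at the entry of the messenger RNA channel, had 43.4 in L, 34.97 in S, 25.1 in G, 22.03 in C and 19.4 in T. Rps7, of the small subunit, had 23.2 in L, 21.6 in S, 17.7 in G, 15.2 in C and 13.004 in T. In these 3 genes L and S were high and T low. Rps4x was ordered otherwise, with 6.95 in L, 6.76 in G, 5.76 in S, 5.07 in C and 3.96 in T.

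Males and females were compared within FSC, C, G, S and L, to ask whether the sex differences of each type reached its ribosomal protein genes. Each test was edgeR's quasi-likelihood test on 4 sums, 1 for each lane, and its p-values measure only the spread between lanes of 1 pool. Most members fell in males in G, S and L, in L on the TMM scale but not on plain library size, and few passed the test in FSC and C. In S, 83 of 87 members were lower in males (13.0% of all genes tested) and 0 higher (13.4% of all). In G, 70 of 83 were lower (8.38% of all) and 0 higher (6.45% of all). In S and G, the count of higher members was also 0 at an unadjusted p under 0.05 and 0 with DESeq2. In L, 78 of 87 were lower (19.3% of all) and 2 higher (14.8% of all).

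In FSC, 12 of 87 members were lower (6.03% of all) and 1 higher (5.71% of all). In C, 2 of 86 were lower (0.955% of all) and 0 higher by edgeR (0.493% of all), with 8 higher at an unadjusted p under 0.05 and 0 by DESeq2. Without the lanes of 1868, 1861, 2047 and 2085 cells in turn, 8, 8, 5 and 4 members were lower in FSC, and 8 were higher in C without the female lane of 1861 cells. The median log2 difference of the core genes, males over females, was -0.04 in FSC, 0.01 in C, -0.53 in G, -0.41 in S and -0.61 in L. The medians of all genes tested lay between 0.00 and 0.02 in the 5 types.

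In L the direction of the counts rested on the scale. With library size in place of TMM factors, 34 of 87 members were higher and 15 lower in males, where 4584 and 570 of all 8640 genes were. The median of all genes was 0.66 and that of the members 0.04. With hormones and globins left out of the library size, 5 were higher and 49 lower, where 2986 and 910 of all genes were. The medians were then 0.40 and -0.22. Relative to the median of all genes, the members' median was -0.63 with TMM, -0.62 with library size and -0.63 without hormones and globins. The values for L below are on the TMM scale and are to be read relative to the median of all genes. In G and S the members were lower on all 3 scales, by 43 to 70 calls in G and 78 to 83 in S. On these scales 352 to 577 of all 6888 genes were lower in G and 1005 to 1548 of all 11930 in S.

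**Figure D5:**
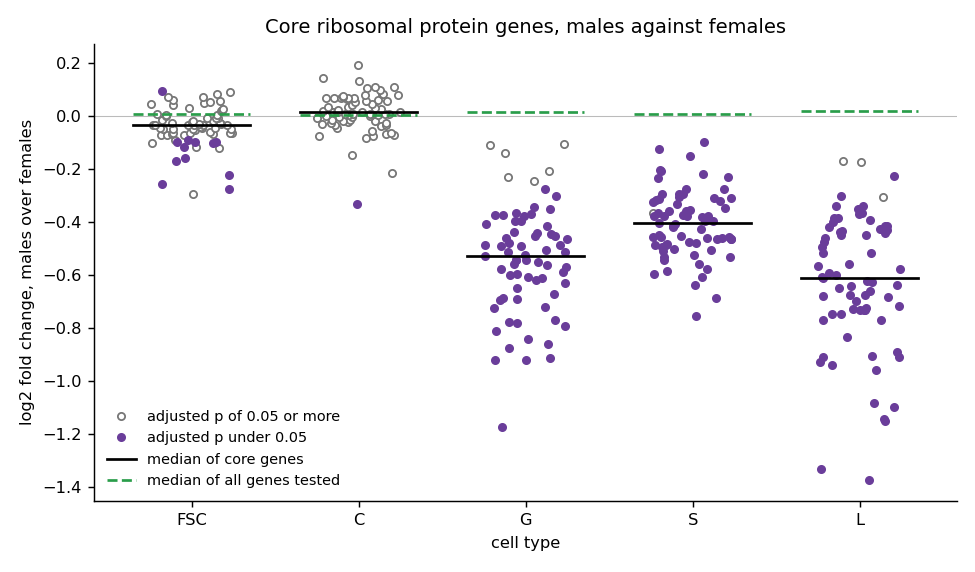
Log2 fold change of males over females (y axis, TMM scale) for each core gene (points) in FSC, C, G, S and L (x axis), filled where the adjusted p was under 0.05. Black lines mark the median of the core genes and dashed green lines the median of all genes tested; the core median is -0.04 in FSC, 0.01 in C and -0.61 in L, where it rests on the scale.

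The shares of UMIs split the types in the same way, with the exception of L on the plain total. In S the share was 18.4% and 18.2% in females and 14.6% and 14.4% in males. In G it was 17.1% and 16.6% in females and 14.3% and 14.1% in males. In L it was 17.8% and 18.4% in females and 17.97% and 18.2% in males, which overlapped, but 26.3% and 26.8% against 22.1% and 22.2% with hormones and globins left out of the total. FSC had 21.1% and 21.2% against 21.3% and 21.3%, and C had 13.9% and 13.997% against 14.7% and 14.8%, a difference in the other direction. T had 12.2% and 14.5% in females and 11.5% and 11.6% in males. Hormone UMIs made up 32.4% and 31.4% of the total in female L and 18.8% and 17.9% in male L, and 27.7% and 29.04% against 31.3% and 31.5% in S.

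Among the types tested, depth differed between the sexes without overlap in S, L, G and FSC, in unlike directions. Of the types not tested, T had medians of 6171.5 and 7148 UMIs in females and 13700 and 13034 in males. EC had 7425.5 and 7746 against 6727 and 7349. Median UMIs per cell were 11281 and 12048 in females and 15364 and 15528 in males of S, and 16169 and 20499 against 7581 and 6676 of L. They were 10438 and 12976 against 8513 and 9744 in G and 6305 and 6455 against 7496.5 and 7344 in FSC, where the share did not fall. The mean number of ribosomal protein UMIs per S cell was 2159 and 2256 in females and 2273 and 2264 in males, so the lower share in males stood beside a larger total. In L that number was 3057 and 3729 against 1510.1 and 1391. Within lanes of S the share fell with depth, with Spearman rho over the cells of a lane from -0.54 to -0.39, and rose with the mitochondrial share, with rho from 0.45 to 0.58, as a description of lanes with 436 to 524 cells. In cells of 8000 to 16000 UMIs, a window chosen after seeing the data, the share was 19.7% and 19.5% in females and 16.3% and 15.7% in males in S, 18.3% and 18.4% against 14.5% and 14.7% in G, and 17.9% and 18.3% against 16.6% and 16.9% in L. In the same window FSC had 20.01% and 20.3% against 20.7% and 21.04%. Median depths inside the window still differed between the sexes in S, L and G. They were 11645.5 and 11821 against 12961 and 12488 in S, and 12564 and 12624 against 10636 and 9695.5 in L. In G they were 11201 and 11776 against 9675 and 10223. The window held 25 to 31 cells per lane of G, and 46 and 21 female and 52 and 44 male cells of L. The part of depth in the sex differences was not tested further.

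Rplp1, a protein of the ribosomal stalk, was the core gene called lower in males (adjusted p under 0.05, edgeR, TMM scale) in all 5 types. Other core genes, such as Rps4x, also had negative log2 differences in all 5 but did not pass in each. Its level was 19.9 and 18.5 in female and 12.7 and 11.1 in male lanes of S. It was 20.4 and 19.6 against 13.2 and 11.6 in L, 14.7 and 13.3 against 8.21 and 6.75 in G, 10.02 and 9.998 against 8.65 and 7.91 in C and 18.9998 and 17.6 against 16.7 and 14.7 in FSC. The sexes did not overlap in any of the 5 types. Within each sex, however, the first lane given was above the second in all 5 types. In FSC the male lanes, at 16.7 and 14.7, lay further apart than the nearest lanes of the sexes, at 17.6 and 16.7. The source of this difference between lanes of 1 pool was not tested. The log2 differences were -1.33 ± 0.06 in L, -1.17 ± 0.11 in G, -0.76 ± 0.04 in S, -0.33 ± 0.05 in C and -0.26 ± 0.05 in FSC, with adjusted p from 4.43e-24 in L to 0.00208 in FSC. The call in C was lost without the male lane of 2085 cells, and that in FSC with no filter on low counts.

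Rplp0, to which Rplp1 binds in the stalk, fell in L, from 52.1 and 54.4 in females to 32.3 and 32.2 in males (log2 difference -1.37 ± 0.05, adjusted p = 2.78e-28). It fell in G from 31.9 and 29.2 to 20.7 and 17.98 (-0.92 ± 0.09, adjusted p = 7.28e-06) and in S from 36.7 and 34.7 to 26.9 and 26.5 (-0.48 ± 0.02, adjusted p = 2.76e-16). It did not pass the test in FSC (-0.03 ± 0.03, adjusted p = 0.499) or C (-0.07 ± 0.05, 0.65). Rpsa, a small-subunit protein also known as a precursor of a laminin receptor, fell by 1.14 in L (SE 0.06), by 0.91 in G (SE 0.09) and by 0.43 in S (SE 0.03) on the log2 scale. Rpl23 fell by 1.15 in L (SE 0.06), where its level was 16.5 and 17.1 in females against 12.1 and 11.7 in males, and Rpl3, near the peptidyl transferase center, fell by 0.92 in G (SE 0.08).

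Several paralogs also differed between the sexes. Rpl39l fell in G, from 4.66 and 5.06 in females to 3.10 and 3.10 in males (-0.92 ± 0.12, adjusted p = 9.07e-05), and in S (-0.23 ± 0.04, adjusted p = 0.000125). In L it was 3.85 and 3.91 against 3.61 and 3.77 (-0.72 ± 0.08, adjusted p = 4.14e-10), and the call was lost with library size as the scale. In S, Rpl10l fell by 0.96 (SE 0.12), Rpl31l4 by 0.70 (SE 0.04) and the pseudogene row Rpl12-ps1 by 0.69 (SE 0.21, a call lost under 3 of 9 alternatives). In C, Rpl10l had -0.86 ± 0.21 (adjusted p = 0.0259), a call lost under 5 of 9 alternatives.

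In FSC the largest called falls beside Rplp1 were those of Rpl19 (-0.28 ± 0.05), Rps4x (-0.22 ± 0.04) and Rpl31l4 (-0.18 ± 0.05, lost under 7 of 9 alternatives). Rpl41 was the member higher in male FSC, at 116 and 117 against 105 and 108 (0.09 ± 0.03 on the log2 scale), and the call was lost under 6 of 9 alternatives. The 2 members higher in male L were Rpl38-ps1, with 158 UMIs in all cells, and Rps19bp1, neither of which is a core gene. The first call was lost under 3 of 5 alternatives and the second under 6 of 9.

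Whether these sex differences differed between the types was tested in 1 fit over 20 sums. For the sex difference in L minus the mean of those in FSC, C, G and S, 65 of 87 members were lower (10.1% of all genes tested) and 1, Rps19bp1, was higher (7.66% of all). On library size 8 were lower and 45 higher, where 478 and 3528 of all 13496 genes were. The median of all genes was 0.52 there. The members' median minus that of all genes was -0.35 with TMM, -0.34 with library size and -0.34 without hormones and globins. The call of Rps19bp1 was lost under 3 of 6 alternatives. A contrast added after seeing the data, the mean sex difference in G, S and L minus that in FSC and C, gave 78 of 87 lower (6.82% of all) and 0 higher by edgeR (3.22% of all; 0 at an unadjusted p under 0.05, and DESeq2 was not run). Its counts were 65 lower with library size and 73 without hormones and globins, with 0 higher on both. Of all 13496 genes, 366 and 501 were lower and 1906 and 1227 higher on these scales. All 71 core genes had a negative value on the TMM scale, from -0.89 to -0.28. The largest were those of Rplp0 (-0.89 ± 0.05), Rplp1 (-0.81 ± 0.07), Rps18 (-0.80 ± 0.05) and Rpsa (-0.79 ± 0.05), with adjusted p from 1.39e-16 to 5.48e-12. The types of this contrast were grouped after their sex differences in the same lanes were seen, so its direction and p-values cannot test the grouping.

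Genes of the same pathway outside the rule were counted by lists, each read beside the share of all genes tested that was called in the same comparison and direction. Of other ribosomal proteins, Fau is made as a fusion with a relative of ubiquitin, and Gnb2l1 encodes the scaffold Rack1 on the small subunit. Both were lower in pituitary cells than in Le and EC (-0.54 ± 0.11 and -0.58 ± 0.14) and fell in males in G, S and L on the TMM scale. In FSC and C their sex differences lay between -0.10 and 0.03, with adjusted p of 0.314 or more. Of the 11 elongation and associated factors, 10 of 11 tested fell in males in S (13.0% of all genes), 9 of 11 in L (19.3%), 7 of 10 in G (8.38%) and 1 of 10 in FSC (6.03%). Eef1a1, the factor that brings aminoacyl-tRNA to the ribosome, fell by 0.73 in S (SE 0.07), 0.93 in L (SE 0.10) and 0.91 in G (SE 0.15). Tpt1, another transcript with a pyrimidine tract, fell by 1.39 in L (SE 0.05), and Eef1b2, a subunit of the elongation factor's exchange complex, by 1.41 (SE 0.06). The log2 difference of Eef1a2, the elongation factor of neurons and muscle, was 4.15 ± 0.54 between pituitary cells and Le and EC, and -6.01 ± 0.43 between FSC and the hormone-producing types.

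Of the initiation factors, in males 15 of 28 tested were lower in S (13.0% of all genes), 3 of 27 in G (8.38%), and in L 8 of 28 were lower (19.3%) and 3 higher (14.8%), among the latter the cap-binding protein gene Eif4e with 0.55 ± 0.15. Between pituitary cells and Le and EC, 12 of 28 were lower (24.0% of all genes) and 2 higher (31.1%), with Eif4ebp1, an inhibitor of the cap-binding protein, at -2.70 ± 0.16 and the helicase gene Eif4a2 at 1.61 ± 0.12. Of the ribosome assembly genes 10 of 19 fell in males in S (13.0% of all genes), 2 of 16 in G (8.38%) and 3 of 18 in L (19.3%), with Nop56, a protein of the small nucleolar ribonucleoproteins, at -0.96 ± 0.09 in S and -2.09 ± 0.24 in G. Of the mitochondrial ribosomal protein genes, which belong to a separate ribosome, 36 of 70 were higher (31.1% of all genes) and 2 lower (24.0%) in pituitary cells than in Le and EC, with a median log2 difference of 0.54, and 20 of 70 were lower (20.1% of all genes) and 4 higher (28.5%) in FSC than in hormone-producing cells. In S, 11 of 71 fell (13.0% of all genes) and 5 rose (13.4%) in males, and in L 16 of 66 fell (19.3%) and 7 rose (14.8%), shares near those of all genes for the falls.

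Cells with 14 or more of 39 cell cycle genes above threshold, here called cycling, had lower ribosomal protein shares than other cells in the 5 sets of a type and sex that were compared. In FSC the share was 13.8% in 15 cycling female cells against 21.3% in 1139 others, and 15.97% in 19 cycling male cells against 21.4% in 1140 others. The middle 50% of single cells lay at 13.5% to 15.6% in cycling female FSC and at 19.1% to 24.1% in the others, and in male FSC at 12.7% to 17.6% and 19.3% to 24.1%, so the ranges did not overlap in FSC. In S and female L they overlapped, with 14.6% to 17.8% against 14.8% to 22.9% in female S, and in female L the range of cycling cells, 15.03% to 18.1%, lay within that of the others, 13.5% to 22.2%. In S the share was 16.3% in 16 cycling female cells against 18.3%, and 12.1% in 11 cycling male cells against 14.5%, and in female L it was 16.8% in 24 cells against 18.2%. Cycling FSC had median depths of 11140 UMIs in females and 14222 in males against 6346 and 7367.5 in the others, and no test was made because the cells of a sex share 1 pool.

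Some members and near members could not be read from these counts. The 9 symbols under the limit on cells included the core genes Rps9, Rpl35a and Rpl8 with UMIs in 2 cells each and Rplp2 and Rps6 in 1 cell each, genes that nearly all cells use, so these rows say nothing of their expression. The paralogs Rpl36al (21 cells), Rpl3l (6) and Rps15al4 (6) and the row Rpl26-ps3 (0) were below the limit too. The members just above it were Rpl38-ps2 and Rpl13-ps1, with UMIs in 46 cells each. A further 87 rows listed by number only are named in RefSeq as ribosomal protein genes or copies, and held 1.14% of all UMIs against 17.0% in the members. One of them, named as a copy of Rpl8 and with 34894 UMIs, had -0.55 ± 0.05 in male against female S (adjusted p = 4.37e-11) and -0.60 ± 0.08 in L (4.13e-09). No member has the symbol Rpl37a. A row with a pseudogene symbol, Rpl37a-ps1, held 325605 UMIs, and how many of them are Rpl37a transcripts was not tested. That row was higher in FSC than in hormone-producing cells by 0.59 ± 0.16 (adjusted p = 0.00591). The rows listed by number that RefSeq names Rpl37a-ps14 and Rpl37al3 held 2620 and 138 UMIs.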

How the data were processed

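Single cells were captured with 10x Genomics 3′ chemistry and sequenced by the study. The deposited matrix holds whole UMI counts per gene and cell, which the authors made with Cell Ranger 2.1 against an NCBI rat annotation with extended 3′ ends and added mitochondrial genes, and the 4 lanes were combined after reads were subsampled to equal mapped depth. Subsampling equalizes reads per lane and not UMIs per cell. Near-identical rows can lose or trade reads, since how reads with several matches were counted is not given in the sources used here. A number at the end of each barcode gives the lane, and the lanes of each sex were told by the cell numbers that the study states for them. The files do not tell replicate 1 from replicate 2 of a sex, and lanes are therefore called by how many cells they hold.

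Cells with a high mitochondrial share (over 2 SD above the mean), the outer 1.5% of depth at each end and doublets found with synthetic doublets were left out, as the study describes. Types were set by its markers, and 192 used cells that the markers did not classify took the most frequent type among their nearest neighbours. Also left out were 207 ambiguous cells, 60 melanotrophs, 59 posterior pituitary cells, 51 pericytes and 26 unclassified cells. Counts were summed per type and sex (16 sums, E left out) or per type and lane, filtered by filterByExpr with a minimum count of 10, scaled with TMM and tested with edgeR 4.0.16 (R 4.3.3) by the quasi-likelihood test with Benjamini-Hochberg adjustment over all genes tested, at 0.05. Sums of different types share a pool, and p-values measure the spread between these sums. DESeq2 1.42.0, other scalings, filters, thresholds and fits and each lane left out were alternatives. Levels are UMIs per 10000 UMIs of a type in a lane, and shares of cells carry exact (Clopper-Pearson) 95% intervals. The scripts were tested on simulated data.

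Members and lists were chosen with earlier results of these data known. The text names the 8 called core genes with the largest change in each direction between types, the 8 with the smallest p among hormone-producing types, the 4 called members with the largest change in each direction in each sex comparison, every paralog, the stalk proteins, Rpsa, Rps27a, members next to the limit on cells and the 3 called genes of each list with the largest change in each direction. Not all genes that this rule gives are printed, and some are not reported here. Rpl37a-ps1, the rows named as copies and the second rows of Rps4x and Rps27a were named after their values were seen. Promoter windows are from RefSeq (GRCr8), matched by symbol and used for sequence only.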

Additional observations from a re-analysis of the deposited data

Results flagged for a closer look

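Sex differences that differed between cell types were tested in 1 edgeR fit over 20 sums of 5 types and 4 lanes. For the sex difference in L minus the mean of those in FSC, C, G and S, counts are on the TMM scale. Of 87 members, 1 was higher (7.66% of all genes tested) and 65 were lower (10.1% of all). Rps19bp1 had 0.50 ± 0.18 (log2, SE), Rpl23 -1.08 ± 0.06, Rplp0 -1.0003 ± 0.06, Rps2 -0.79 ± 0.06 and Rpsa -0.78 ± 0.06. On library size, which moved the median of all genes to 0.52, the split of the counts was the other way. There 45 were higher and 8 lower, where 3528 and 478 of all 13496 genes were. The members' median minus that of all genes was -0.34 there and -0.35 with TMM.

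The mean sex difference in G, S and L minus that in FSC and C was a contrast chosen after seeing the data. By edgeR 78 of 87 members were lower (6.82% of all genes tested) and 0 were higher (3.22% of all). At an unadjusted p under 0.05 the count of higher members was also 0, and DESeq2 was not run. Rplp0 had -0.89 ± 0.05, Rplp1 -0.81 ± 0.07, Rps18 -0.80 ± 0.05 and Rpsa -0.79 ± 0.05. These values rest on 1 pool per sex, and depth per cell differed between the sexes in S, L, G and FSC as given above. The types were grouped after their sex differences in the same lanes were seen, so the contrast cannot test that grouping.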

How the results depend on the processing

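The limits of these results lie in the pools, the scale and the depth. Each sex is 1 pool, so no value holds a spread between animals. No paired analysis was possible because the files do not give the replicate number of each lane. Of the values of single genes, 157 in number, 1451 comparisons with an alternative were made, of which 1294 kept their direction and their side of the threshold, 43 came to pass it, 103 no longer passed it and 11 changed sign. Depth limits Rpl10l, Rps4y2, Rpl30l1 and the pseudogene rows, and with 3 UMIs of Rpl39l in E its share there rests on counting error. The causes of the changes below were not tested.

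Of pituitary cells against Le and EC, the counts of members higher and lower were 15 and 17 on library size without hormones and globins, 9 and 24 without T and 2 and 13 at an adjusted p under 0.001, with 9 higher with lanes as libraries and 30 lower with no filter on low counts. Leaving out each lane gave 5 higher and 37 to 57 lower. Of FSC against hormone-producing cells, they were 57 and 0 on library size, 33 and 8 with lanes as libraries, 12 and 7 without T and 5 and 0 at 0.001, with 2 lower with E in the fit. Leaving out each lane gave 19 to 25 higher and 0 to 3 lower, with 0 lower without the female lane of 1861 cells. Among the hormone-producing types 37 members differed on library size, 10 at 0.001, and 71 to 75 without a lane. The counts of all genes are given above for the scales of the first 2 contrasts, and not for the other alternatives.

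Of the sexes, in FSC the counts higher and lower in males were 5 and 5 on library size, 7 and 5 without hormones and globins, 0 and 5 with DESeq2, 0 and 1 with no filter, 0 and 6 in 1 fit over 5 types, 0 and 1 at 0.001, and 0 to 3 and 4 to 8 without a lane. In C, 7 were higher and 1 lower on library size, 1 higher without hormones and globins, 1 higher with no filter, 1 lower with DESeq2, 1 lower at 0.001, and 0 to 8 higher and 0 to 2 lower without a lane, where the 8 higher came without the female lane of 1861 cells and the 0 lower without the male lane of 2085 cells. In G, 43 were lower on library size, 38 at 0.001, and 51 to 70 without a lane, with 0 higher. In S, 80 to 82 were lower and 0 higher without a lane. In L, 34 were higher and 15 lower on library size, 5 and 49 without hormones and globins, and 0 were higher with DESeq2, 0 with no filter, 0 in 1 fit over 5 types, 0 at 0.001, and 0 to 1 without a lane, with 78 to 79 lower. For the sex difference in L minus that in the other types, 45 were higher and 8 lower on library size, 18 and 26 without hormones and globins, 0 higher at 0.001, and 0 to 1 higher and 53 to 61 lower without a lane. For G, S and L minus FSC and C, 0 were higher and 77 to 78 lower without a lane. On library size, all genes higher and lower were 4584 and 570 of 8640 in L and 3528 and 478 of 13496 in the difference of L. They were 1000 and 642 of 12894 in FSC, 58 and 61 of 9946 in C and 1056 and 352 of 6888 in G. Without hormones and globins they were 1014 and 634 in FSC, 49 and 83 in C, 2986 and 910 in L and 2232 and 759 in the difference of L. Counts of all genes under the other alternatives are not given here, so those member counts have no background beside them.

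The share of UMIs in ribosomal protein genes, with hormones and globins left out of the total, was 9.74% in E, 21.3% in FSC, 18.1% in C, 18.02% in G, 14.6% in T, 23.4% in S and 24.3% in L. With each cell weighted equally the median was 0.268% in E and 21.6% in FSC, with outliers and doublets kept it was 0.383% in E, 21.1% in FSC and 17.7% in L, and with core genes alone 20.3% in FSC, 13.7% in C and 17.4% in L. With the rows that RefSeq names as copies it was 24.5% in Le, 17.7% in EC, 22.7% in FSC, 15.3% in C and 19.3% in L, and in cells of 8000 to 16000 UMIs 20.5% in FSC and 17.5% in L, both chosen after seeing the data. Leaving out each lane gave 0.287 to 0.304% in E, 22.6 to 23.3% in Le, 16.2 to 16.9% in EC, 21.2 to 21.3% in FSC, 14.2 to 14.5% in C, 14.98 to 15.999% in G, 11.8 to 12.8% in T, 15.7 to 17.1% in S and 17.98 to 18.2% in L.

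The Rpl39l share of the pair with Rpl39, as the mean of lanes, was 0 to 33.3% in E, 16.8 to 23.2% in Le, 7.94 to 24.6% in EC, 78.1 to 79.5% in FSC, 85.9 to 86.99% in C, 84.0003 to 85.7% in G, 88.2 to 88.8% in T, 81.9 to 83.7% in S and 84.2 to 85.97% in L with each lane left out. With the copies of Rpl39 counted it was 5.40% in Le, 51.5% in FSC, 58.8% in C, 60.2% in G, 62.6% in T, 54.97% in S and 55.004% in L. With cells thinned to 2000 UMIs, a UMI of Rpl39l was found in 2.74% in Le, 44.7% in FSC, 46.9% in C, 46.4% in G, 53.4% in T, 49.6% in S and 48.1% in L.

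Among single genes, the sex difference in L minus that in the other types changed sign on library size for Rpl22l1 (0.19), Rpl31l4 (0.21), Rpl39l (0.14), Rps10l1 (0.25), Rps27l (0.089), Rps27l3 (0.099) and Rps27a (0.17), and without hormones and globins for Rps10l1 (0.017). The sex difference in L itself changed sign on library size for Rpl22l1 (0.17), Rps10l1 (0.083) and Rps27l (0.039). Library size moved the median of all genes to 0.52 in the first and 0.66 in the second, and each of these values lay below it. Without hormones and globins the median in the first was 0.30.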
